A study of Homo sapiens with 6 samples.

Results

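The genes described here are 41 regulators of the cell cycle, chosen by name. Among them are cyclins, cyclin-dependent kinases (CDKs), the CDC25 phosphatases with the kinase WEE1, CKS subunits, and E2F factors with their DP partners and pocket proteins. The others are CDK inhibitors, and the ubiquitin ligase parts CCNF and SKP2 with MDM2. The 41 genes belong to the 20037 protein-coding genes in the RefSeq annotation of GRCh38.p14. A gene was called bound in a library when that library's own list had a MYC peak no more than 1000 bp from the first or the last annotated base of the gene. By that rule 32 and 30 of the 41 genes were bound in the libraries from conditioned medium (43.9% and 40.9% of all coding genes), and 15 and 22 in those from DMEM (16.8% and 28.1%).

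MYC binding was mapped by chromatin immunoprecipitation and sequencing (ChIP-seq) in MIAPaCa2, an established cell line from a human pancreatic ductal adenocarcinoma. In the group called CM, cells spent 48 hours without serum and then 3 hours in medium that primary cancer-associated fibroblasts had conditioned, itself free of serum. In the group called DMEM, cells spent the same 48 hours without serum and then 3 hours in fresh serum-free DMEM. Each group has 2 immunoprecipitated libraries, and nothing in the labels says that they came from separate cultures, so the spread between them may be technical. All libraries come from 1 cell line, and the labels name no number of fibroblast donors. The input libraries, 1 per group, were not analysed here.

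The deposited lists held 15304 and 12797 peaks in CM libraries 1 and 2, and 4657 and 7652 peaks in DMEM libraries 1 and 2. Each peak carries the authors' whole-number score, which was used only to rank peaks within 1 list. The score percentile of a gene is the share of peaks in the list that score below its best peak, with ties at their mean rank. Read depth is unknown, and the lists differ in length, so a higher percentile or a further bound gene in CM does not by itself show more MYC. As a check of the cell type, 4 of 10 ductal and epithelial markers were bound in both CM libraries (KRT8, KRT18, KRT19 and MUC1), a share close to the 39.1% of all coding genes, and EPCAM and CDH1 in none. None of 8 acinar, 10 fibroblast or 6 immune markers was bound in both CM or in both DMEM libraries, although ACTA2 had a peak in CM library 2 and CD68 in CM library 1 and DMEM library 2.

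Progress through the cell cycle is driven by CDKs, which act once a cyclin is bound and inhibitory phosphates are removed. D-type cyclins with CDK4 or CDK6 phosphorylate pocket proteins in G1 and so release E2F factors, which switch on the genes of S phase, while cyclin B with CDK1 drives mitosis. MYC binds DNA as a dimer with MAX, prefers the E-box letters CACGTG, and is a textbook driver of G1 exit, with CCND2, CDK4 and E2F genes among its known targets and CDKN1A among the genes it is known to repress.

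Most of the 41 genes had a MYC peak in CM, and fewer had one in DMEM. In both CM libraries 30 genes were bound, and in both DMEM libraries 14. These were 73.2% of the 41 genes in CM and 34.1% in DMEM, against 39.1% of all protein-coding genes in CM and 15.9% in DMEM. The 14 genes bound in both DMEM libraries were all bound in all 4 libraries, a call made for 15.9% of coding genes. A further 9 genes were bound in both CM libraries with 1 DMEM library (12.3% of coding genes), and 7 had a peak in each CM library but none in DMEM, called CM-only here (11% of coding genes). CCNB2 and RB1 had a peak in CM library 1 alone, a pattern of 5.97% of coding genes when either CM library is counted. No library held a peak at 9 of the genes, against 54.1% of coding genes. No gene was bound in DMEM alone, among the 41 or among all coding genes (0%).

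These counts rest in part on single DMEM libraries and on list length. Without DMEM library 2, the CM-only count was 15 in place of 7, and the share of coding genes 22.4% in place of 11%. Without DMEM library 1, the counts bound in DMEM and in all 4 libraries were 22 in place of 14. The shares of coding genes were then 28.1% and 27.3%, each in place of 15.9%. With all lists shortened to the 4657 best-scoring peaks, the length of the shortest one, 17 genes were bound in both CM libraries (18% of coding genes) and 13 in both DMEM libraries (13.9%). At equal length 10 genes were bound in all 4 libraries (12.3%) and 3 were CM-only (1.89%), namely E2F1, TFDP1 and CCNE2.

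**Figure D1:**
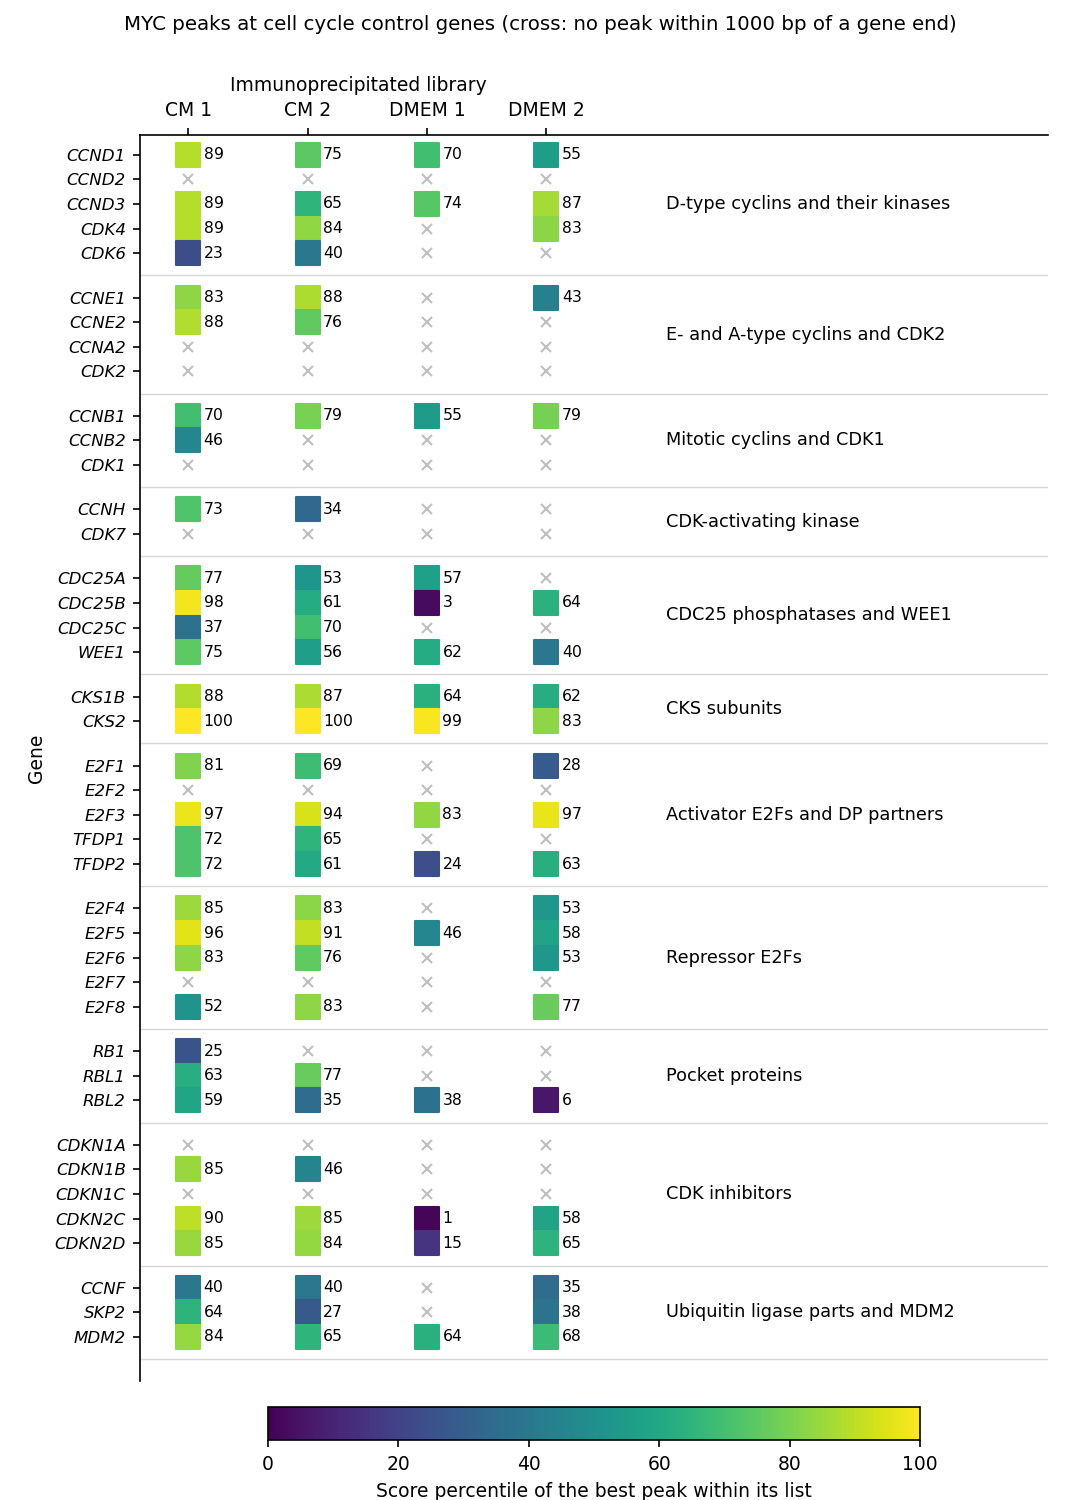
Score percentile of the best MYC peak of each of the 41 genes (rows, grouped by role) in CM libraries 1 and 2 and DMEM libraries 1 and 2 (columns), as colour on a scale of 0 to 100 and as a rounded number. Crosses mark no peak within 1000 bp of a gene end. The 9 genes with 4 crosses include CDK1, CDK2 and CCNA2, and the highest numbers in the CM columns are those of CKS2.

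Among the D-type cyclins and their kinases, 4 of 5 genes had peaks in both CM libraries and 2 in both DMEM libraries. The cyclin D1 gene CCND1 (chromosome 11, 69641156 to 69654474) had score percentiles of 89.0 and 74.8 in the CM libraries and 69.6 and 55.1 in the DMEM libraries. Both CM values lay above both DMEM values. Its best peak was 3969 and 577 bp wide in the CM libraries and 321 and 249 bp wide in the DMEM libraries, each of which had 3 separate peaks over the same region. CCND3, for cyclin D3, whose best CM peaks also lay at an end of TAF8, had 88.8 and 64.9 in CM and 73.7 and 86.5 in DMEM. The ranges overlapped, and CCND3 was the 1 gene bound in all 4 libraries whose mean percentile was lower in CM (76.8 ± 16.9) than in DMEM (80.1 ± 9.05; SD, n = 2 each). CCND2, for cyclin D2, had no peak at an end, and its nearest peak lay between 14938 and 15553 bp away in all 4 libraries.

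The kinase genes of this group differed from each other. CDK4 (chromosome 12, 57747727 to 57752310) had percentiles of 88.8 and 83.5 in the CM libraries and 82.5 in DMEM library 2. DMEM library 1 had no peak there, and the nearest one lay 19111 bp away. CDK6 (chromosome 7, 92604921 to 92836573) was CM-only, at 23.1 and 39.9. Both values were in the lower part of their lists. In DMEM the nearest peaks lay 14376 and 14297 bp from the far end of the gene, and 246028 and 245949 bp from its start. The promoters of both kinase genes hold the E-box CACGTG and are printed for that reason, 5′ to 3′ on the strand of the gene, from 250 bases before to 50 bases after the start that RefSeq lists on GRCh38.p14. Capitals in these and the following promoters mark CACGTG, the related letters CACGCG and CATGCG, and the E2F-type letters TTTGGCG and TTTCCCG, on either strand. CDK4 is at chr12:57752261-57752560 and CDK6 at chr7:92836524-92836823, both on the minus strand.
CDK4: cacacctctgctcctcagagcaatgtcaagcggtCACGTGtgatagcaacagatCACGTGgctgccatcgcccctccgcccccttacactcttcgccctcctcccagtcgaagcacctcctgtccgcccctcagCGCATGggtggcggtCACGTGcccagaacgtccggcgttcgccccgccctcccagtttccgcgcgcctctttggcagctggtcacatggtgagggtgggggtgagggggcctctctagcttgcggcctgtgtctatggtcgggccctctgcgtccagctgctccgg
CDK6: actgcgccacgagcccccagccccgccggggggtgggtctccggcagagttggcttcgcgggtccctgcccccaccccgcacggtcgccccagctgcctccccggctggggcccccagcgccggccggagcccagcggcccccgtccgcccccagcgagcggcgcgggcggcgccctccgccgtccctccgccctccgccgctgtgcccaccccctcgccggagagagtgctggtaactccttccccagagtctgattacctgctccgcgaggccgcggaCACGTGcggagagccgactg
CACGTG begins at −216, −196 and −101 in the CDK4 promoter and at +31 in that of CDK6, counted from the start. CDK4 peaks covered all 300 bases in the CM libraries, and 251 in DMEM library 2. CDK6 peaks covered 135 of its 300 bases in CM library 2 and none in CM library 1, whose peak lay 295 bp from the start.

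Of the E- and A-type cyclins and their kinase CDK2, which act at the entry to and during S phase, only the E-type cyclin genes had peaks. CCNE1 had percentiles of 82.9 and 87.7 in the CM libraries and 43.2 in DMEM library 2, with no peak in DMEM library 1. CCNE2 was CM-only at 88.2 and 75.8, the highest mean percentile among the 7 CM-only genes, 82.0 ± 8.76 (SD, n = 2). Both CM peaks at CCNE2 also lay at an end of NDUFAF6. CDK2 had its nearest peaks 39259 and 68917 bp away in CM, and 131412 and 68956 bp away in DMEM. CCNA2, for cyclin A2, had peaks 14698 and 14339 bp away in the CM libraries, and none nearer than 1573340 bp in the DMEM libraries.

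The mitotic cyclins and CDK1 were split in the same way. CCNB1, for cyclin B1, had 69.9 and 79.4 in CM and 54.8 and 79.0 in DMEM, so that the groups overlapped. CCNB2 had a peak in CM library 1 alone, at 45.9. CDK1, the mitotic kinase itself, had no peak nearer than 870019 bp in any of the 4 libraries. The CCNB1 promoter, at chr5:69166900-69167199 on the plus strand, holds CACGTG at −196 and is printed as the E-box promoter of a G2/M gene.
CCNB1: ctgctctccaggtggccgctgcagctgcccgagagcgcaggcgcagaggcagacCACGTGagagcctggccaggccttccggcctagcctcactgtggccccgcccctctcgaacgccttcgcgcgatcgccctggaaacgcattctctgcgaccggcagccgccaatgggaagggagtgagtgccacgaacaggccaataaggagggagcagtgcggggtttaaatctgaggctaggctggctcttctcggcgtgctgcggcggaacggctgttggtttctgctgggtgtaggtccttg
Peaks covered all 300 bases in both CM libraries, and 252 and 300 in the DMEM libraries.

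The CDK-activating kinase, which phosphorylates the activation loop of CDKs, had peaks at its cyclin and not at its kinase. CCNH, for cyclin H, was CM-only at 72.5 and 33.5. At CDK7 the nearest peak lay 44145 bp away or farther in each library.

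The 4 listed genes for enzymes that act on the inhibitory phosphates of CDKs were all bound in both CM libraries. The CDC25 phosphatases remove these phosphates, and the kinase WEE1 adds them. CDC25A, which acts at the entry to S phase, had 76.5 and 52.7 in CM and 56.5 in DMEM library 1, with no peak in DMEM library 2. It was the 1 gene of the 9 bound in both CM and a single DMEM library in which that library was DMEM library 1. CDC25B had 98.2 and 61.4 in CM and 2.74 and 64.0 in DMEM. These CDC25B values mix both ends of the gene. In CM library 1 and DMEM library 1 the best peak lay beyond the far end, near the noncoding gene LINC01730. At the start, shared with CENPB, the percentiles were 88.0 and 61.4 in CM and 64.0 in DMEM library 2, with none in DMEM library 1. CDC25C was CM-only at 36.8 and 69.8, in peaks that also lay at the start of FAM53C. WEE1 had 75.2 and 55.6 in CM and 61.5 and 39.6 in DMEM, with overlapping groups.

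The CKS subunits, small proteins that bind CDKs and recruit their substrates, were bound in all 4 libraries. CKS1B had 88.5 and 87.2 in the CM libraries and 63.5 and 62.4 in the DMEM libraries. The groups did not overlap, and the means were 87.8 ± 0.922 in CM and 63.0 ± 0.804 in DMEM (SD, n = 2 each). In all 4 libraries the peak also lay within 1000 bp of the start of SHC1. CKS2 had the highest percentiles of the 41 genes in the CM libraries, 99.8 and 99.8, and 98.9 and 82.9 in the DMEM libraries. In 3 of the 4 libraries this best peak lay at the far end, where SECISBP2 starts. At the start of CKS2 itself the percentiles were 86.8 and 84.7 in CM and 66.6 and 82.9 in DMEM, again with both CM values above both DMEM values. The CKS2 promoter, at chr9:89310945-89311244 on the plus strand, is printed since the gene had the highest mean percentile over the 4 libraries.
CKS2: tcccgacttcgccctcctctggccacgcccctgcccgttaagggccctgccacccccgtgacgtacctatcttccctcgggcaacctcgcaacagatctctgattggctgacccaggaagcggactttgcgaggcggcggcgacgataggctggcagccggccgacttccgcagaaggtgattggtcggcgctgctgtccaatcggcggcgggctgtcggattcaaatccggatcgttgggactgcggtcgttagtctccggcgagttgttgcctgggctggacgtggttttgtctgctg
It holds none of the letters marked by capitals. Peaks covered all 300 bases in both CM libraries, and 294 and 148 in the DMEM libraries.

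The activator E2Fs and their DP partners, which switch on S phase genes, ranged from the top of the lists to no peak. E2F3 (chromosome 6, 20401879 to 20493714) had percentiles of 97.2 and 93.8 in the CM libraries and 83.5 and 96.8 in the DMEM libraries. The ranges overlapped, and its peaks were 4509 and 3517 bp wide in CM, and 2730 and 1963 bp wide in DMEM. In all 4 libraries these peaks also lay at the start of another coding gene, LOC124901482. E2F1 (chromosome 20, 33675477 to 33686385) had 80.6 and 69.0 in the CM libraries and 28.5 in DMEM library 2. That DMEM peak lay at the far end of E2F1, beside the start of NECAB3, and at the start of E2F1 itself peaks were called in the CM libraries alone. E2F2 had no peak nearer than 159668 bp in any library. TFDP1, which encodes the partner DP1, was CM-only at 71.9 and 64.9. TFDP2 had 71.9 and 60.5 in CM and 23.8 and 63.1 in DMEM, and its 4 peaks had no base in common. The E2F3 promoter, at chr6:20401629-20401928, is printed as that of the gene with the next highest mean percentile after CKS2. The TFDP1 promoter, at chr13:113584503-113584802, is printed as that of the CM-only gene ranked next after CCNE2 and RBL1 by mean percentile. Both are on the plus strand, and that of TFDP1 holds 3 copies of CACGCG.
E2F3: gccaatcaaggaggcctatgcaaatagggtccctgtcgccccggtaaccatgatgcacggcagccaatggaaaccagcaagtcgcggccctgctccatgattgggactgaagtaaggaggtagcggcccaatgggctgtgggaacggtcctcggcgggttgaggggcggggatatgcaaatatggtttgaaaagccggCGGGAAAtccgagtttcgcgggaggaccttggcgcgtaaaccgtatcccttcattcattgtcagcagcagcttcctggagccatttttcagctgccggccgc
TFDP1: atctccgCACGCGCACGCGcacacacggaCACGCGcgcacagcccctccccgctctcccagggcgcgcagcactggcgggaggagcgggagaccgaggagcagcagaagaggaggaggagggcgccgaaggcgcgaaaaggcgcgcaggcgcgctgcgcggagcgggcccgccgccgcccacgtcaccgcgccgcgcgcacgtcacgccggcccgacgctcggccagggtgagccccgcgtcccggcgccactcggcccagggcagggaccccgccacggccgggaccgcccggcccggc
E2F3 holds 1 E2F-type word, at −52, and no E-box. Its peaks covered all 300 bases in both CM libraries, and 300 and 215 in the DMEM libraries. In TFDP1 the peaks covered 49 and 3 bases of this window in the CM libraries and none in DMEM. These bases belonged to lower-ranked peaks, at 39.8 and 11.8. The best peaks, at 71.9 and 64.9, lay wholly downstream of the printed window.

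Of the repressor E2Fs, which hold S phase genes down in resting cells or late in the cycle, 4 of 5 were bound in both CM libraries. E2F5 had 95.6 and 91.0 in CM and 46.1 and 58.2 in DMEM. The groups did not overlap, and the means were 93.3 ± 3.29 in CM and 52.1 ± 8.54 in DMEM (SD, n = 2 each). For E2F4, E2F6 and E2F8, DMEM library 2 joined the CM libraries in having a peak. Their percentiles were 84.9 and 82.6 in CM and 53.0 in DMEM library 2 for E2F4, and 82.9 and 75.8 in CM and 53.0 in DMEM library 2 for E2F6. E2F8 had a less even pattern, with 51.6 and 83.1 in CM and 76.9 in DMEM library 2. E2F7 had no peak nearer than 256395 bp.

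The pocket proteins, which bind E2Fs and silence their targets, had lower-ranked peaks. RBL2, for p130, had 59.1 and 35.0 in CM and 37.8 and 5.99 in DMEM, in 4 peaks with no base in common and groups that overlapped. RBL1, for p107, was CM-only at 62.6 and 76.7. RB1, the retinoblastoma gene, had a peak in CM library 1 alone, at 25.5. The RBL1 promoter, at chr20:37095948-37096247 on the minus strand, is printed as that of the CM-only gene with the highest mean percentile after CCNE2.
RBL1: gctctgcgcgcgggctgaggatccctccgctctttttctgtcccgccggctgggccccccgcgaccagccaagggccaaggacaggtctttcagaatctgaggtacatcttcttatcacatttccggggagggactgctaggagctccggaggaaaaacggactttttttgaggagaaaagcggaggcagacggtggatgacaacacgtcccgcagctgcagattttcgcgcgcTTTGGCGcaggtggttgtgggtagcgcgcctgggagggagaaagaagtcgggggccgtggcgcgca
It holds 1 E2F-type word at −16 and no E-box, and lay wholly under peaks in both CM libraries and under none in DMEM.

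Among the CDK inhibitors, CDKN2C and CDKN2D were bound in all 4 libraries and showed wide gaps between the groups. CDKN2C, for p18, which blocks CDK4 and CDK6, had 90.0 and 85.3 in the CM libraries and 1.21 and 58.2 in the DMEM libraries. Its difference of means, 58.0 percentile points, was the largest of the 14 genes bound in all 4 libraries, although the DMEM values lay far apart from each other (29.7 ± 40.3, SD, n = 2). The peaks also lay at the start of FAF1. CDKN2D, for p19, had 84.6 and 83.7 in CM and 15.1 and 64.7 in DMEM, at its far end, which is also the start of KRI1. At its own start the values were 63.6 and 72.1 in CM and 58.2 in DMEM library 2. CDKN1B, for p27, was CM-only at 84.6 and 45.7, with 83.9 and 45.7 at its own start. The peak at 84.6 lay at the start of APOLD1, and the peaks at the CDKN1B start also lay at an end of GPR19. In DMEM the nearest peaks lay 2421 and 1975 bp beyond the far end of CDKN1B, so the CM-only call by either end rests on the 1000 bp window. From its start the nearest DMEM peaks lay 7422 and 6976 bp away. The CDKN2C promoter, at chr1:50960495-50960794 on the plus strand, holds CACGTG at −220.
CDKN2C: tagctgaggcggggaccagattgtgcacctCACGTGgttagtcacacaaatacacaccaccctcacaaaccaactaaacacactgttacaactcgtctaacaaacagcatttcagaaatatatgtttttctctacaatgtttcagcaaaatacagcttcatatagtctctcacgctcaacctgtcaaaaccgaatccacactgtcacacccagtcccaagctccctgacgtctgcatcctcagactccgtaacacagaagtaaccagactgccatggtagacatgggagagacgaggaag
Peaks covered all 300 bases in the CM libraries, and 95 and 149 bases in the DMEM libraries.

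CDKN1A, for p21, and CDKN1C, for p57, had no peak at an outermost end. For CDKN1A the annotation lists a start 2251 bp inside the gene, and peaks lay within 1000 bp of it at 5.69 and 35.0 in the CM libraries and in neither DMEM library. The nearest peaks to CDKN1C lay 182910 and 106697 bp away in CM, and 493327 and 482392 bp away in DMEM.

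The ubiquitin ligase parts and MDM2 were all bound in both CM libraries. SKP2, which marks p27 for destruction, had 64.5 and 27.4 in CM and 38.2 in DMEM library 2, in peaks shared with LMBRD2. CCNF, the F-box protein cyclin F, had 39.8 and 39.5 in CM and 35.0 in DMEM library 2. The value of 39.8 came from a peak at the start of TEDC2, and at the start of CCNF that library had 15.9. MDM2, itself a ubiquitin ligase, had 84.1 and 64.9 in CM and 63.5 and 68.0 in DMEM, with overlapping groups.

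**Figure D2:**
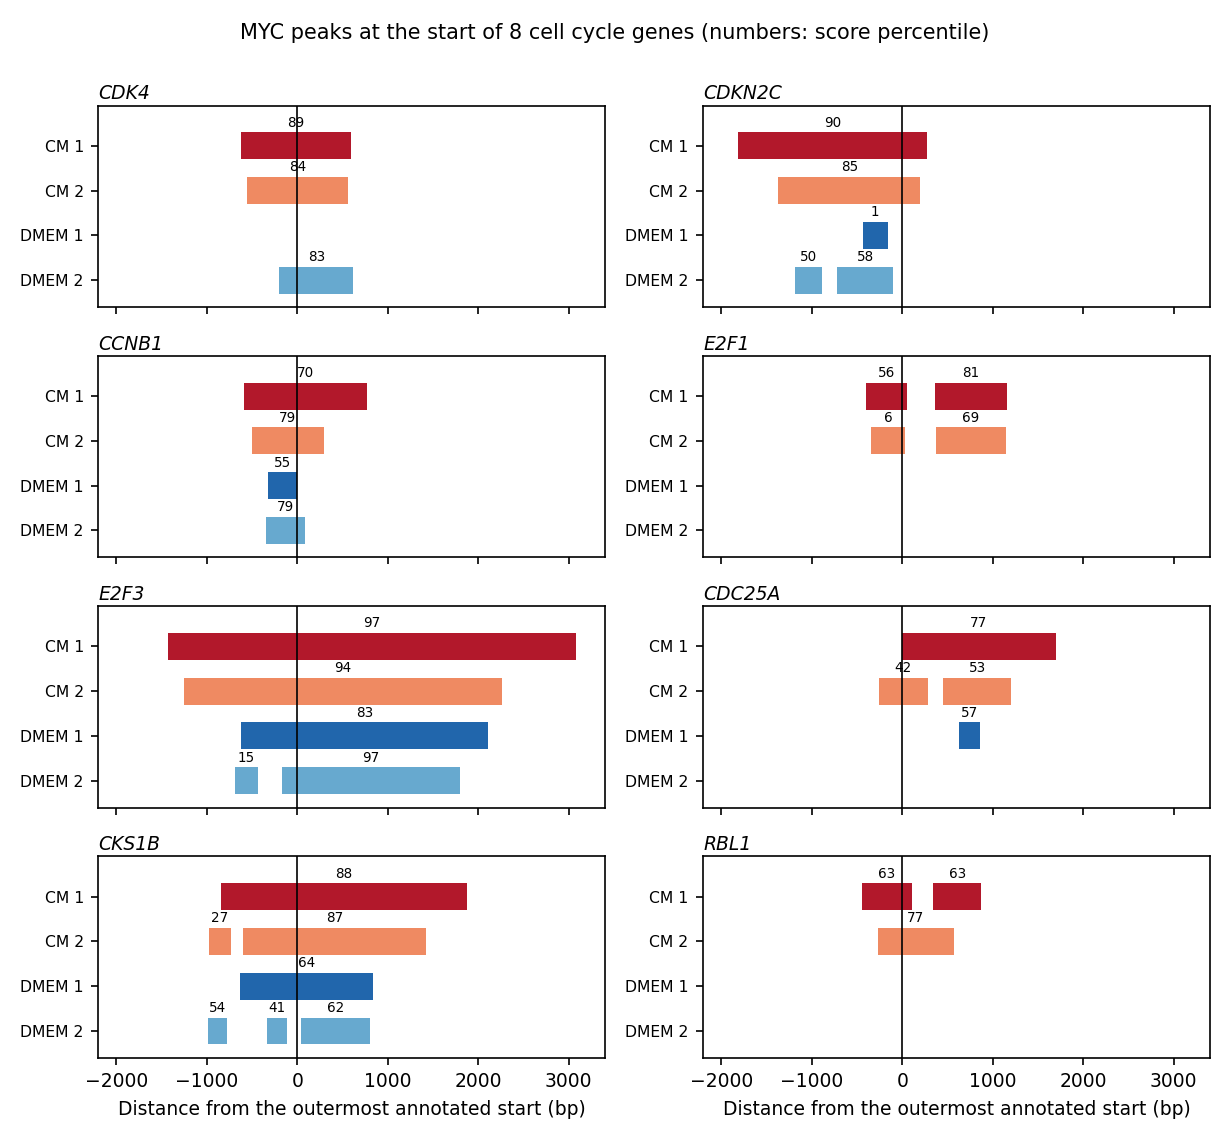
MYC peaks at the starts of 8 genes, drawn as bars from first to last base by distance from the outermost annotated start (bp, transcription to the right), in CM libraries 1 and 2 and DMEM libraries 1 and 2. Numbers are rounded score percentiles. The E2F3 bar is the widest at 4509 bp in CM library 1, and E2F1 and RBL1 have bars in the CM libraries alone.

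The question of whether MYC was found more at genes of 1 phase, or at activators more than inhibitors, was addressed by counts per class. Of 13 G1 genes, 9 had peaks in both CM libraries and 5 in both DMEM libraries. Of 17 S phase genes these counts were 13 and 4, and of 8 G2/M genes 6 and 4. The share in both CM libraries was thus 69.2% in G1, 76.5% in S and 75.0% in G2/M. Over all coding genes it was 39.1%, and 15.9% in both DMEM libraries. In the lists as deposited the classes therefore differed by less than the weight of 1 gene among the 8 of G2/M. With lists of equal length, 5 of 13 G1, 9 of 17 S and 2 of 8 G2/M genes were bound in both CM libraries. The shares were not so close, and that of all coding genes was 18%. In DMEM the S phase count depended on the library, with 5 genes bound in DMEM library 1 and 10 in DMEM library 2. Of 25 activators, 18 (72.0%) had peaks in both CM libraries and 8 (32.0%) in both DMEM libraries. Of 14 inhibitors, 10 (71.4%) had peaks in both CM libraries and 5 (35.7%) in both DMEM libraries. In the lists as deposited, activators and inhibitors were therefore bound in nearly the same shares in each group. At equal length the counts in both CM libraries were 11 of 25 activators and 5 of 14 inhibitors (18% of coding genes). Among genes bound in all 4 libraries, the median percentile difference, CM minus DMEM, was 14.2 for 8 activators and 41.2 for 5 inhibitors. Over all coding genes so bound it was 16.2. The genes are not replicates of a class, and no test was made of these differences.

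**Figure D3:**
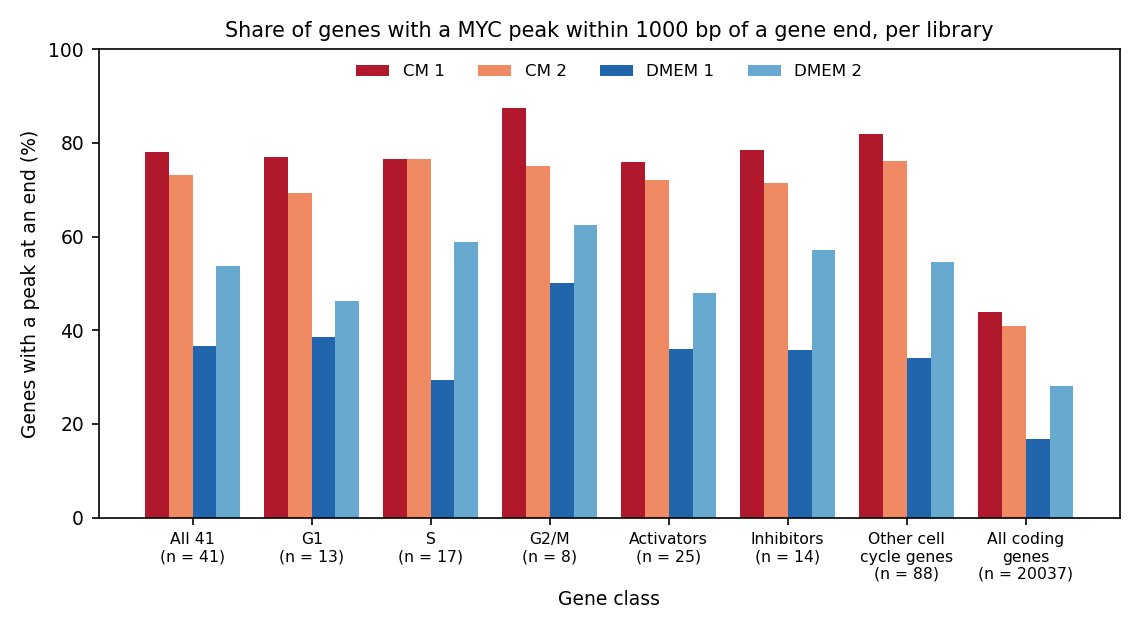
Share of genes with a MYC peak within 1000 bp of a gene end (%, bars from 0) in CM libraries 1 and 2 and DMEM libraries 1 and 2, for all 41 genes, by phase, by activity, for 88 other cell cycle genes and for all 20037 protein-coding genes. Activators (19 and 18 of 25 in CM, 9 and 12 in DMEM) and inhibitors (11 and 10 of 14 in CM, 5 and 8 in DMEM) have bars of similar height, and every class stands above the coding genes in each library.

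For the 14 genes bound in all 4 libraries, the score percentile was compared between the groups. The difference of means, CM minus DMEM, had a median of 21.1 percentile points and ranged from −3.29 (CCND3) to 58.0 (CDKN2C). Over all 3180 coding genes bound in all 4 libraries the median was 16.2. The order of these medians depended on the setting. With the annotated start only they were 11.0 for the cell cycle genes and 16.6 for the coding genes, with a score of at least 50 they were 8.85 and 9.85, without DMEM library 2 they were 12.3 and 20.9, and without CM library 1 they were 12.8 and 14.3. Both CM values lay above both DMEM values for 6 of the 14 genes, against 67.5% of the coding genes, and for none of the 14 below both, against 0.943%. The 6 genes were CCND1, CDKN2C, CDKN2D, CKS1B, CKS2 and E2F5. An exact two-sided permutation test over the 6 relabellings of 2 against 2 libraries cannot give a p below 0.333, and after Benjamini-Hochberg adjustment over the 3180 genes the smallest value was 0.487. No single gene can therefore pass a threshold of 0.05 in this design.

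With all lists shortened to 4657 peaks, 10 of the 41 genes were bound in all 4 libraries. The median difference was then 5.97 points, against 0.985 over 2466 coding genes. Both CM values lay above both DMEM values for 4 of the 10 genes (22.3% of coding genes), namely CDKN2C, CDKN2D, CKS2 and E2F5. At this length CDKN2C had 67.2 and 59.7 in CM and 1.21 and 31.3 in DMEM. E2F5 had 85.7 and 75.2 in CM and 46.1 and 31.3 in DMEM. Both CM values lay below both DMEM values for CCNB1 and CCND3 (15.8% of coding genes). CCND3 had 63.1 and 3.46 in CM and 73.7 and 77.8 in DMEM, and CCNB1 had 0.998 and 43.3 in CM and 54.8 and 65.5 in DMEM. MDM2 had 47.7 and 3.46 in CM and 63.5 and 47.5 in DMEM. Shortening the lists thus turned the sign of the mean difference for CCNB1 and MDM2, which was 7.74 and 8.70 points in the lists as deposited, and also for CCND1 and E2F3.

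**Figure D4:**
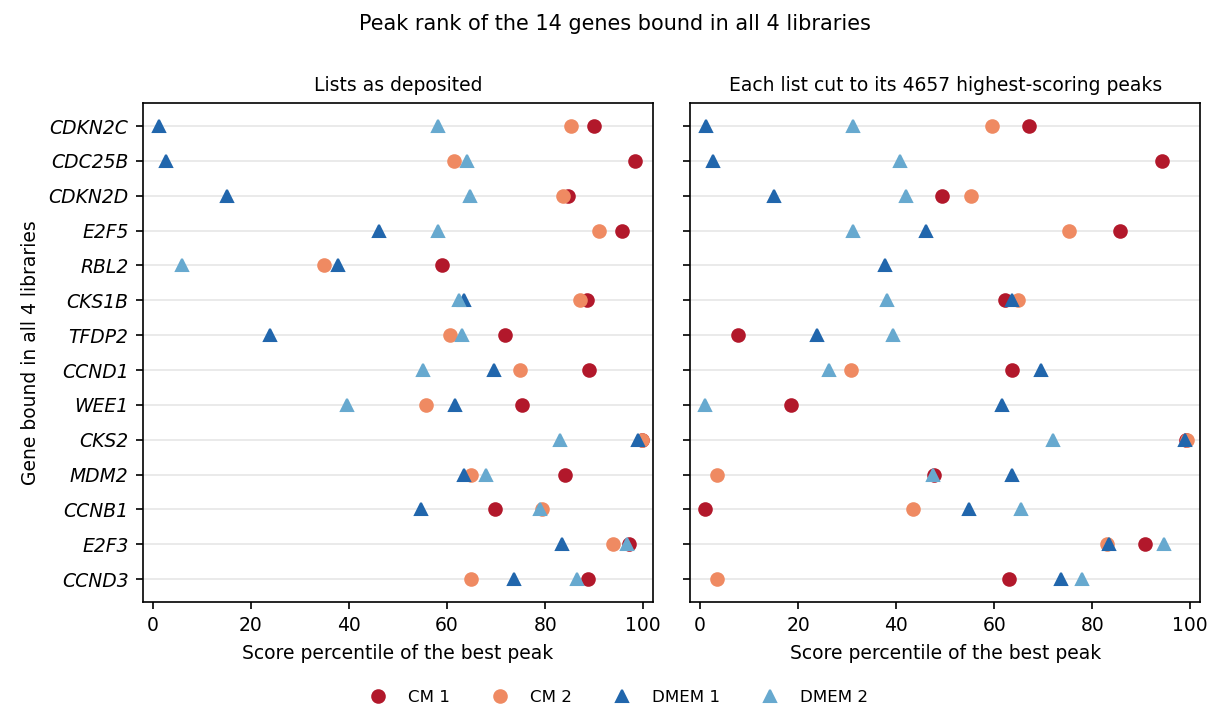
Score percentile of the best peak (0 to 100) of the 14 genes bound in all 4 libraries, in the lists as deposited (left) and with all lists shortened to the 4657 best-scoring peaks (right). Circles are CM libraries and triangles DMEM libraries, and genes run from the largest difference CM minus DMEM (CDKN2C, 58.0) to the smallest (CCND3, −3.29). A missing symbol means that the peak fell outside the shortened list.

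Peak width went with the group as it did at other genes. The best peak was wider in both CM libraries than in both DMEM libraries at 12 of the 14 genes, all but CCND3 and CKS2, against 90% of the coding genes bound in all 4 libraries, and narrower in both at none of them, against 0.0314%. Median widths over the bound genes of the 41 were 1514.5 and 821 bp in CM and 369 and 537 bp in DMEM, against 1161 and 878 bp in CM and 528 and 537.5 bp in DMEM over all bound coding genes. Peaks called in all 4 libraries shared at least 1 base at 11 of the 14 genes, the exceptions being CDC25B, TFDP2 and RBL2, against 93.9% of coding genes.

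Some of these peaks cannot be given to 1 gene. The best peak also lay within 1000 bp of an end of another coding gene for 11 of 32 and 11 of 30 bound genes in the CM libraries, and for 5 of 15 and 7 of 22 in the DMEM libraries. The shares over all bound coding genes were 35.8% and 35% in CM, and 37.3% and 36.2% in DMEM. When only the start was used, for the 33 genes whose strand the RefSeq promoter table gives, 25 were bound in both CM libraries (40.4% of coding genes) and 9 in both DMEM libraries (16.3%). At the start 9 genes were bound in all 4 libraries (16.3%) and 7 were CM-only (11.4%), with E2F1 CM-only by this rule. CDC25B and CDKN2D, whose peaks in DMEM library 1 lay at the far end, had a start peak in the other 3 libraries.

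The promoter letters of 32 of the genes were set beside those of 15027 coding genes. Of the 32, 5 (15.6%) held CACGTG, against 8.90% of all promoters and 12.3% of promoters of genes bound in both CM libraries. They were CDK4, CDK6, CCNB1, CDKN2C and CDK7, and CDK7 had no peak. CACGCG was in 5 promoters (15.6%, against 15.1% of all), and CATGCG in 2 (6.25%, against 8.57%). The E2F-type letters TTTGGCG or TTTCCCG were in 10 promoters (31.2%, against 7.91% of all), among them those of E2F1, E2F2, E2F3, E2F6, CDC25A and RBL1. TTTGAA, the letters of the cell cycle element called CHR, were in 7 (21.9%, against 12.0%), among them CDK1, CCNB2, CCNF and CKS2. An E-box of any of the 3 kinds was in 9 of the 25 promoters of genes bound in both CM libraries (36.0%) and in 2 of the other 7 (28.6%), against 39.8% and 19.4% of the matching promoters over all coding genes. Among those 7, the CDKN1A promoter lies at a start 2251 bp inside the gene, which had peaks in both CM libraries. It is 1 of the 2 that hold an E-box. The median ratio of observed to expected CpG was 0.944 in the 25 promoters and 0.941 in the 7, against 0.875 in all coding genes bound in both CM libraries and 0.572 in those not so bound. Promoters of cell cycle genes not bound in both CM libraries by the gene-end rule thus had about the same median CpG ratio as those so bound. Their share of G and C was lower, with a median of 59.7% against 66.0%. Over all coding genes these medians were 59.3% and 66.3%. Letters were counted on both strands with overlapping matches included, and a match is a run of letters, not a site shown to be used.

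Other genes of the cell cycle were bound at like shares. Of 88 such genes, 66 (75.0%) were bound in both CM libraries, 27 (30.7%) in both DMEM libraries, and 15 in no library. Over all coding genes these shares were 39.1%, 15.9% and 54.1%. All 13 checkpoint genes had peaks in both CM libraries, and 6 in both DMEM libraries. Of 25 genes of cell cycle ubiquitin ligases, 20 were bound in both CM and 10 in both DMEM libraries. Of 8 genes of the DREAM and MuvB complexes with mitotic activators, 7 were bound in both CM and 1 in both DMEM libraries. Of 29 other cyclins and CDKs the counts were 18 and 10, and of 13 other CDK regulators 8 and 0.

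The genes of these lists with the highest mean CM percentile among those bound in all 4 libraries were CDK10, FBXO5, ANAPC1 and ANAPC10. The last 3 act in or on the anaphase-promoting complex, which ends mitosis by marking cyclins for destruction. ANAPC10 had 99.6 and 98.6 in CM and 83.6 and 93.0 in DMEM, in a peak shared with ABCE1, and FBXO5, which inhibits that complex, had 96.5 and 97.3 in CM and 61.0 and 93.0 in DMEM. The leading CM-only genes were CDC37, SKP1, FZR1 and LIN52, and SKP1, a core part of the ligase that holds SKP2, had 79.6 and 55.3. FBXW7, whose ligase marks cyclin E and MYC, had 74.3 and 71.1 in CM and 51.5 in DMEM library 2. CDKN2A and CDKN2B, inhibitor genes of a locus known to be deleted in MIAPaCa2, had no peak in any library.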

How the data were processed

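MYC ChIP-seq was done in MIAPaCa2 cells after CM or DMEM, with 2 immunoprecipitated libraries each. Per the submitters' processing notes, the genome build was GRCh38 and the authors used MACS2 2.1.1.20160309, Bowtie2 2.3.4, Trim Galore 0.4.3, Picard 2.9.0 and SAMtools 1.3.1. Settings and peak-calling controls were not given in the sources used here. Each deposited score is a whole number per peak of a library's own list, whose meaning the files do not state. The authors' common lists merge the peaks that overlap between a group's libraries and average their scores, as a check of all intervals showed. No read counts are among the files used, so depth is unknown and no interval for counting error can be given.

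Genes and positions came from RefSeq on GRCh38.p14, and starts, strands and promoters from its promoter table, which matched 33 of the 41 genes. One RefSeq promoter entry, that of RB1, lay more than 5000 bp inside the gene and was left out of the letter counts. Peaks within 1000 bp of either outermost end were searched with Python 3.11.15, numpy 2.4.6, pandas 2.3.3 and scipy 1.17.1, and figures were drawn with matplotlib 3.10.9. The search was tested on simulated lists. A call for a group needed both of its libraries, and the best-scoring peak gave the percentile. The permutation test was run over all genes bound in all 4 libraries. The members and lists were chosen with earlier results of these data known. All 41 genes may be named. Of the other cell cycle genes, the 4 with the highest mean CM percentile among those bound in all 4 libraries and among the CM-only ones are named, with CDKN2A, CDKN2B and FBXW7; 1 other gene is not reported here. Promoters are printed for the leading 2 genes bound in all 4 libraries, the leading 2 CM-only genes, and those holding CACGTG and bound in both CM libraries, among genes with an entry that can be shown. Marker genes named beside these lists were chosen after their values were seen.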

Additional observations from a re-analysis of the deposited data

How the results depend on the processing

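Read depth and immunoprecipitation yield are unknown, the lists differ in length, and with 2 libraries per group no test could pass, so the counts hold at the authors' threshold only. With lists of equal length, 17 genes were bound in both CM libraries and 3 were CM-only, the difference in the mean number bound per library was 5 in place of 12.5, and the median percentile difference 5.97 in place of 21.1. The counts in both CM libraries were then 11 activators and 5 inhibitors, in place of 18 and 10. By phase they were 5 G1, 9 S and 2 G2/M genes, in place of 9, 13 and 6. The share of all coding genes bound in both CM libraries was then 18% in place of 39.1%. Genes bound in both DMEM libraries numbered 9 in place of 14 with the annotated start only, with a score of at least 50, with peaks at 1 coding gene only, and with any listed start, a choice made after seeing the data. In that order the shares of coding genes were 16.3%, 11.0%, 9.86% and 17.5%, in place of 15.9%. Genes bound in all 4 libraries numbered 9 under each of these rules, except 8 with peaks at 1 coding gene only. The shares of coding genes were 16.3%, 11.0%, 9.52% and 17.5% in the same order. The start rules cover 33 of the 41 genes. CM-only genes numbered 11 with a window of 500 bp (11.0% of coding genes). They numbered 17 in the authors' common lists (23.7%), where a peak in 1 DMEM library does not count.

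Leaving out 1 library at a time gave 30 to 32 genes bound in CM, 14 to 22 in DMEM, 14 to 22 in all libraries and 7 to 15 CM-only. The difference in the mean number bound ranged from 9 to 16, and the median percentile difference from 12.3 to 26.1. Activators ranged from 18 to 19 in CM and 8 to 12 in DMEM, inhibitors from 10 to 11 in CM and 5 to 8 in DMEM. In DMEM, G1 genes ranged from 5 to 6, S phase genes from 4 to 10 and G2/M genes from 4 to 5. The higher DMEM counts came without DMEM library 1 and the 15 CM-only genes without DMEM library 2, where the shares of all coding genes were also higher. The other 105 values were counted as unmoved, under a ratio limit for counts and the spread between libraries of a group for the rest. That spread was 3.64 genes for the number bound and 13.3 points for the percentile, so unmoved values could still be much lower. Among the 105 were 21 genes in both CM libraries, with peaks at 1 coding gene only (25.4% of coding genes). Others were median percentile differences of 11.0 with the annotated start only and 8.85 with a score of at least 50. A check for pairing by library number gave correlations of 0.064 over 9199 genes bound in any library and 0.050 over percentiles of 3180 genes. The library numbers were therefore not taken as pairs. Treating the replicate number as a block cannot change the CM-only count of 7, the mean difference of 12.5 or the median difference of 21.1. The block values are the same by arithmetic, so they are no check, although they are among the 105.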

Other observations

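MYC peaks also lay inside some of the 41 genes, more than 1000 bp from either end, where the rule for bound genes does not count them. CDK6 had 3 and 2 such peaks in the CM libraries and none in the DMEM libraries, the best at percentiles of 54.9 and 40.3, at a start listed 2614 bp inside the gene. These ranked above its outermost start in both CM libraries. CDKN1A had 2 and 2 internal peaks in CM and none in DMEM, the best at 45.9 and 41.7. CDC25B had 2 and 3 in CM and 0 and 1 in DMEM, of which the best lay at 54.9 and 57.5 in CM and 19.8 in DMEM library 2, near a start listed 8838 bp inside. CCND3 had 2 and 2 in CM and 1 and 0 in DMEM. CDKN1B had 3 in CM library 1 and none elsewhere. E2F3 went the other way, with internal peaks in CM library 2 (69.1), DMEM library 1 (23.8) and DMEM library 2 (51.5) and none in CM library 1, where the peak at its start was the widest. No test was made of these counts.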
